A study of Mus musculus with 6 samples.

Results

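The genes described here are 10 genes of glycolysis, the breakdown of glucose to pyruvate and lactate: Hk1, Pfkm, Aldoa, Aldoc, Gapdh, Pgk1, Eno1, Eno2, Ldha and Ldhb. They were taken by name from the 18560 genes of the count table, and all 10 were present in it. RNA of single cells was measured in olfactory bulbs of C57BL/6NJ mice, aged 14 weeks according to the methods, in 6 libraries of 2 per condition. Each library pooled 3 mice, males in replicate 1 and females in replicate 2, after 6 weeks of manipulation. Control libraries carry the label of no manipulation, while the study's text calls its controls naive mice in one place and the open side of occluded mice in another. In naris occluded mice a plug closed a nostril, and trained mice were deprived of water and learned to tell odors apart for a water reward. The dissection kept some cells of the olfactory epithelium, and the mice were wild type. The deposited annotation placed 50671 cells in 40 clusters, of which 18 are neuronal (21746 cells) and 22 non-neuronal (28925 cells). Cluster names are those of the deposited annotation, in which the sizes of some astrocyte, ensheathing, mesenchymal and microglia clusters are exchanged against the study's own list, so that a name such as Astro2 may stand for other cells there. The clusters were joined into classes by their names. Axis A (8 clusters) and axis B (3 clusters) are the branches along which the study ordered adult-born interneurons from the immature cluster n04, and these 12 clusters together are called adult-born neurons.

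Glycolysis proceeds through a fixed order of enzymes, several of which exist as paralogues with tissue preferences. Hexokinase traps glucose in the cell and phosphofructokinase commits it, aldolase splits the sugar, glyceraldehyde-3-phosphate dehydrogenase and phosphoglycerate kinase harvest the first energy, enolase prepares pyruvate, and lactate dehydrogenase interconverts pyruvate and lactate. Aldolase C and neuron-specific enolase (Eno2) are long-used markers of brain cells, and astrocytes are known as a source of lactate for neurons.

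Sequencing depth was between 11841160 and 17065083 UMIs per library in annotated cells, where a UMI is a tag that marks a single captured molecule. The median was 1028 UMIs per cell in the first trained library and between 1344.5 and 1723.5 in the other 5, and the median mitochondrial share was highest in the same library, at 14.4%. Between 65 and 144 barcodes were shared by any 2 libraries. Most listed markers had their highest level in the class they mark. An exception was Cspg4, highest in mural cells and not in oligodendrocyte precursors.

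Levels are given as CPM, the UMIs of a gene relative to the UMIs of all genes on the usual CPM scale, summed over the cells of a class or cluster in each library, as mean ± SD over the 6 libraries. Because the authors formed the clusters from these expression values, differences between them are described and not tested. Free RNA enters all droplets, so the level in red blood cells, which lack nuclei, is given as a background. Red blood cells also held RNA of their own kind, such as Alas2 at 870 ± 136 CPM. For a gene they express this background is too high, and which members they express was not tested. Haemoglobin genes took 82.0% ± 5.31 of the UMIs of red blood cells, which lowers the CPM of all other genes there. UMIs per cell are therefore given as well for some of the low levels. Red blood cells had 128 ± 41.2 CPM of Aldoa, 196 ± 76.3 of Aldoc, 108 ± 46.5 of Ldhb, 75.0 ± 26.6 of Gapdh and at most 37.97 ± 18.1 (Eno1) of each of the other members. Per cell, red blood cells held 0.511 UMIs of Aldoa, 0.685 of Aldoc and 0.0913 of Eno2. The part of free RNA in the levels below was not tested beyond this comparison.

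The regions before the start sites of the paralogues are shown because the aldolase and enolase pairs divided neurons from astrocytes and the lactate dehydrogenase pair divided endothelial cells from both. Sequences are from RefSeq on the mouse build GRCm38.p6 and cover the 250 bases before an annotated start, written 5′ to 3′, and all 10 members were matched by symbol with 20 windows in all. Capitals mark ACGTG or GCGTG on either strand, the core of the hypoxia response element (CACGT and CACGC on the strand shown). A CACGTG holds the motif on both strands, and its overlapping matches were counted separately. The window with the most matches is printed for each gene except Ldhb.
Aldoa (chr7:126799255-126799504, minus strand): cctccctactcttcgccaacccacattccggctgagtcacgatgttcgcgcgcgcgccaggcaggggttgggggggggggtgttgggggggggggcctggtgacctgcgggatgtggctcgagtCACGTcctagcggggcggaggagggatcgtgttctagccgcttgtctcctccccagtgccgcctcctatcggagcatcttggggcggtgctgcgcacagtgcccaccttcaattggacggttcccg
Aldoc (chr11:78322823-78323072, plus strand): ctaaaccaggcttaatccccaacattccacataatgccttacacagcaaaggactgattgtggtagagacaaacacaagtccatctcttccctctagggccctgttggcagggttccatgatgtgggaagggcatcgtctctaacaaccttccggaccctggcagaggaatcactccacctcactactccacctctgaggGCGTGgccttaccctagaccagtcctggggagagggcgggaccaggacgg
Eno1 (chr4:150236947-150237196, plus strand): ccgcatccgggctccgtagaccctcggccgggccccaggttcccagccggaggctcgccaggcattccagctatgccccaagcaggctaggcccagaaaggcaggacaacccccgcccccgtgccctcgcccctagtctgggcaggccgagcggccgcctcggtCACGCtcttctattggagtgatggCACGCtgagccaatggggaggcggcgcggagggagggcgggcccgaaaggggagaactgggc
Eno2 (chr6:124769674-124769923, minus strand): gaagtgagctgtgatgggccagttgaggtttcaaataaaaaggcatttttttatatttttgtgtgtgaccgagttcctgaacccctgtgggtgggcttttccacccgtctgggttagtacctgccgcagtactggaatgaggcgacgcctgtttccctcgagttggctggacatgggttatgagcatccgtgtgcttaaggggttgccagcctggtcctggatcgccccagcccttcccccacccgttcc
Ldha (chr7:46845554-46845803, plus strand): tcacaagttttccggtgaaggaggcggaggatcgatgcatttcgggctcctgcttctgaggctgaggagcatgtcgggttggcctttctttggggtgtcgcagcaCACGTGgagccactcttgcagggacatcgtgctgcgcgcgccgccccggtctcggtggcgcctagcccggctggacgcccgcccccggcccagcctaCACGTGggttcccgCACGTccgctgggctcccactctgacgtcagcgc
The Ldha window held 5 matches, the Eno1 window 2, the Aldoa and Aldoc windows 1 each, and the Eno2 window 0, while the window of Ldhb, not printed, held 1. Printed windows were picked from 3 each for Aldoa and Eno1, 2 each for Aldoc and Ldha and 1 for Eno2. The other Ldha window held 1 match, so the counts are not compared between genes. At least 1 match was present in 16 of the 20 windows of the members, and 38.6% of all 32851 windows held one. Windows of neighbouring starts of Eno1, Aldoa and Pfkm overlap, so the 16 count some bases more than 1 time. These matches describe letters only and do not show binding of a factor.

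Hexokinase 1, which phosphorylates glucose, was counted at low levels in all classes. Hk1 was at 76.5 ± 6.19 CPM in axis A interneurons, 81.6 ± 20.7 in mitral and tufted cells, 48.4 ± 4.16 in astrocytes, 40.9 ± 5.0 in ensheathing cells and 38.9 ± 4.6 in immature neurons. When the 40 clusters were ordered by Hk1, all 39 pairs of neighbours lay within the larger of their SDs. The level was lower in astrocytes than in axis A interneurons in 6 of 6 libraries. Muscle-type phosphofructokinase, the committed step, had its highest class level in astrocytes. Pfkm had 118, 122, 117, 109, 136 and 108 CPM in astrocytes of the control, naris occluded and trained libraries, replicate 1 before replicate 2, and 26.4, 24.2, 23.5, 22.9, 29.1 and 25.0 CPM in ensheathing cells. The values of the 2 glial classes did not overlap in any library, and the ratio of their means was 4.70. Adult-born neurons were between them, at 48.4 ± 5.36 CPM, whereas microglia had 10.1 ± 1.83. Among single clusters n16-M/TC-2, a cluster of mitral and tufted cells, had the highest mean, 135 ± 34.5 CPM, which lay within an SD of Astro1 at 128 ± 13.6. Astro3 had 116 ± 16.6 CPM, but Astro2 only 33.7 ± 10.7, near OEC3 at 30.4 ± 10.2.

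Aldolase splits fructose-1,6-bisphosphate, and its A and C forms were highest in different cells. Aldoa was at 1798, 1783, 1748, 1727, 1854 and 1867 CPM in axis A interneurons, in the library order given above. In astrocytes the same gene was at 776, 738, 703, 668, 775 and 702 CPM, below axis A in each library, and the ratio of the means was 2.47. Immature neurons n04 had 247 ± 47.3 CPM, the lowest CPM of Aldoa apart from red blood cells. Per cell, n04 held 0.421 UMIs of Aldoa and axis B interneurons 0.602, near the 0.511 of red blood cells, against 3.28 in axis A. The level of n04 is therefore not told apart from that of red blood cells, and how much of the latter is their own RNA was not tested. The highest cluster was n12-GC-6, granule cells of axis A, at 2156 ± 71.2 CPM, followed by n02-PGC-1 at 2053 ± 71.7, n05-PGC-2 at 2030 ± 221 and n11-GC-5 at 1990 ± 58.1. The first exceeded the next by more than their SDs, whereas the following 3 lay within their spread of each other, as did 35 of the 39 neighbouring pairs in the whole order.

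Aldoc was at 2603, 2632, 2629, 2831, 2849 and 2819 CPM in astrocytes and at 1375, 1395, 1466, 1479, 1751 and 1561 CPM in ensheathing cells, the glia that wrap olfactory axons. Every library had more Aldoc in astrocytes than in ensheathing cells, and more in ensheathing cells than in adult-born neurons, which had 196 ± 29.2 CPM. Astrocytes exceeded adult-born neurons 13.9-fold and ensheathing cells exceeded them 7.68-fold. Axis A interneurons, at 169 ± 21.2 CPM, and n04, at 153 ± 32.9, lay within the spread of microglia (167 ± 36.9) and red blood cells (196 ± 76.3). Axis B interneurons had 304 ± 35.9 CPM and mitral and tufted cells 325 ± 41.5, at median depths of 827.5 and 912 UMIs per cell against 1719 in microglia. Per cell, Aldoc was at 0.310 UMIs in axis A, 0.288 in axis B, 0.262 in n04, 0.537 in mitral and tufted cells and 0.306 in microglia, all below the 0.685 of red blood cells, and at 4.29 in astrocytes and 2.91 in ensheathing cells. The Aldoc of these neurons is therefore not told apart from that of red blood cells. Mitral and tufted cells lay above axis A, axis B, n04 and microglia per cell, and the part of free RNA in these levels was not tested. The cluster n12-GC-6, highest for Aldoa, was lowest of all 40 for Aldoc, at 95.8 ± 44.6 CPM. Clusters of other classes with a raised mean CPM were n13-AstrocyteLike, at 878 ± 144, and EC2, an endothelial cluster, at 729 ± 151 against 145 ± 13.5 in EC1. Per cell, n13-AstrocyteLike held 0.585 UMIs, below the 0.685 of red blood cells but above the 0.306 of microglia. Its Aldoc is therefore not told apart from that of red blood cells. Median depth was 656 UMIs per cell in n13-AstrocyteLike and 750.5 in EC2 against 1621 in EC1, and the part of depth or of admixed glial RNA in these values was not tested.

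**Figure D1:**
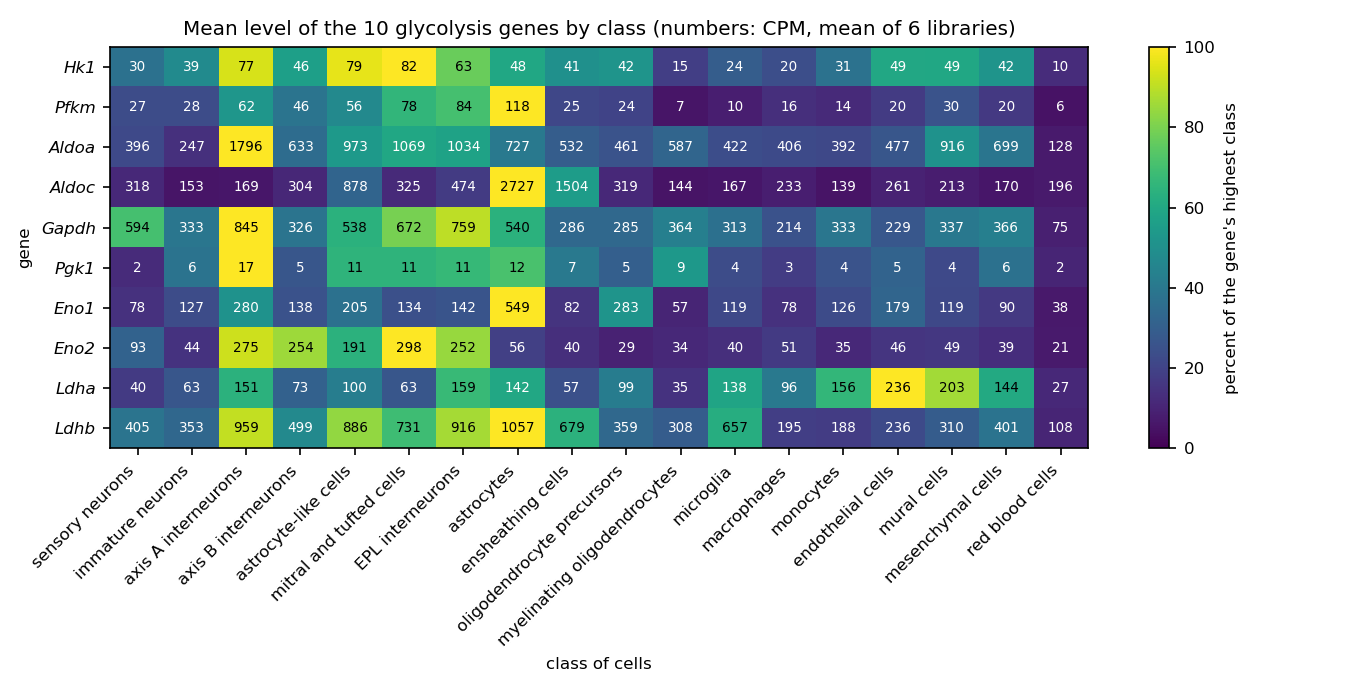
Mean level of the 10 genes (rows) in 18 classes of cells (columns). Numbers are CPM, the mean of 6 libraries, and color gives the percent of the highest class of that gene. Aldoc, Pfkm, Eno1 and Ldhb are highest in astrocytes, Aldoa, Gapdh and Pgk1 in axis A interneurons, Hk1 and Eno2 in mitral and tufted cells, and Ldha in endothelial cells.

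Expressed as a share of the pair, Aldoc made up 78.9% ± 1.39 of Aldoa and Aldoc UMIs in astrocytes, 73.8% ± 2.19 in ensheathing cells, 15.2% ± 1.42 in adult-born neurons and 8.58% ± 0.948 in axis A interneurons. A share is one of 3′ counted UMIs that are not scaled by gene length, so it was compared between cell types and not read as a ratio of the proteins. The difference between astrocytes and adult-born neurons was 63.7 percentage points (SD 2.01) and had the same direction in 6 of 6 libraries. Astro2, a cluster of 336 cells in the deposited annotation, had 61.7% ± 5.84, below the 80.9% ± 1.36 of Astro1 and 75.5% ± 2.11 of Astro3. In the 5 ensheathing clusters the share ran from 60.01% in OEC1 to 82.1% in OEC4. Immature neurons had 38.1% ± 2.88 and axis B interneurons 32.4% ± 2.35, where Aldoa was low, while in red blood cells the share was 60.01% ± 7.36. The red blood cell share rests on as few as 12 UMIs of the pair in a library.

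**Figure D2:**
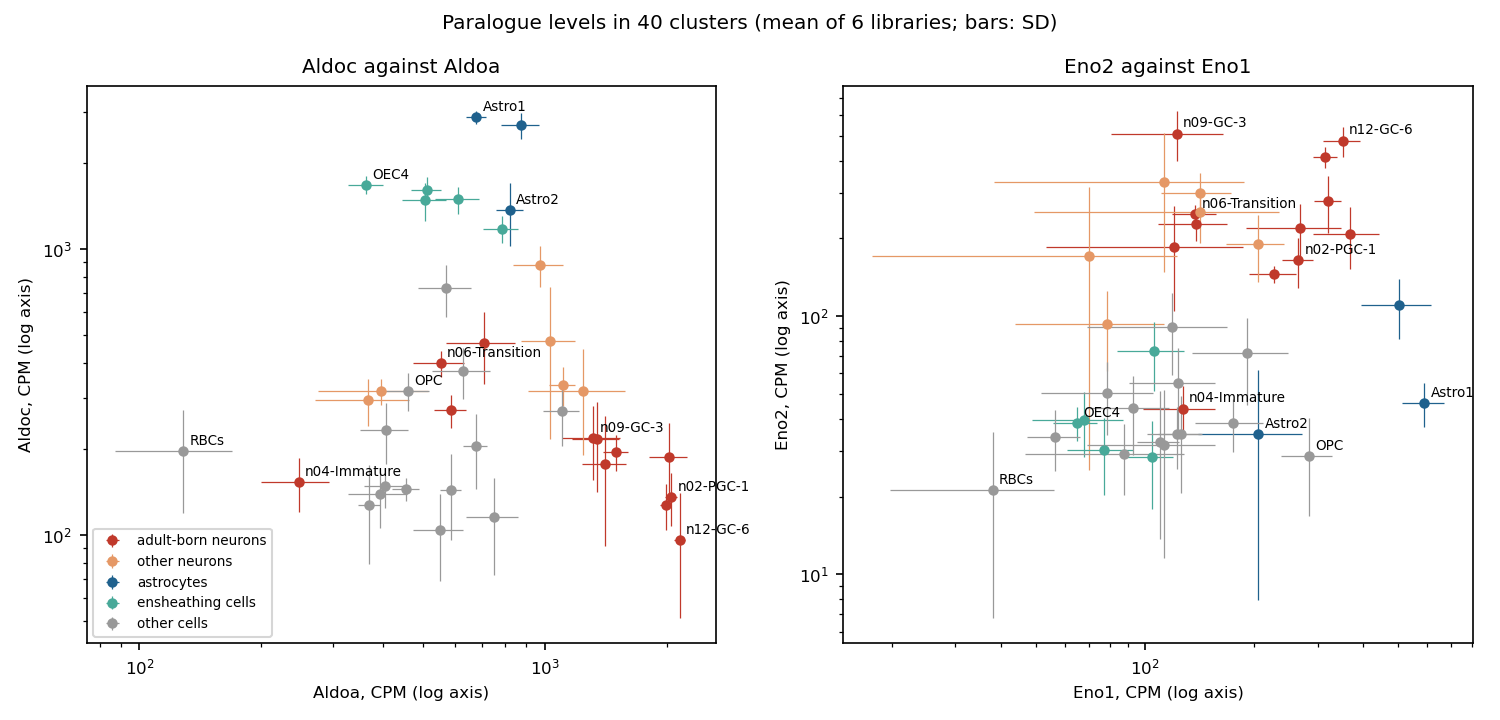
Levels of Aldoc against Aldoa (left) and Eno2 against Eno1 (right) in the 40 clusters, both on log axes in CPM. Points are means of 6 libraries, bars are SDs, and colors mark groups of clusters. The lowest Aldoc level among astrocyte and ensheathing clusters is 1176 CPM (OEC1), and n12-GC-6 combines the highest Aldoa with the lowest Aldoc.

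Glyceraldehyde-3-phosphate dehydrogenase, often used as a reference gene, was not level across the bulb. Gapdh was at 845 ± 65.3 CPM in axis A interneurons, 672 ± 44.9 in mitral and tufted cells, 540 ± 28.6 in astrocytes, 333 ± 25.1 in n04, 286 ± 18.5 in ensheathing cells and 229 ± 28.7 in endothelial cells. Its highest cluster, n02-PGC-1, had 995 ± 42.0 CPM. Astrocytes were above ensheathing cells in 6 of 6 libraries, by 1.89-fold, whereas astrocytes and adult-born neurons differed by 0.10 on the log2 scale (SD 0.10). Phosphoglycerate kinase was counted rarely. Pgk1 reached 24.7 ± 10.2 CPM in n02-PGC-1 and had no UMI in n14-GC-7 and n16-M/TC-2, and all 39 neighbouring pairs of clusters lay within an SD. Copies that could share sequence with members were in the count table for 3 of them, with 1664 UMIs of Eno1b, 1004 of Aldoart1 and 277 of Pgk1-rs7 in all cells used. No source used here says how the authors' counting divided such molecules, so the levels of Eno1, Aldoa and Pgk1 are uncertain to that extent.

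Enolase makes phosphoenolpyruvate, and its Eno1 form is the ubiquitous one, while Eno2 is known from neurons. Eno1 was at 588, 483, 657, 461, 539 and 565 CPM in astrocytes and at 84.5, 74.6, 82.8, 62.5, 99.1 and 88.1 CPM in ensheathing cells. The astrocyte values were above those of ensheathing cells in each library, 6.70-fold by the means, and above adult-born neurons (203 ± 17.2 CPM) 2.70-fold. Astro1 (591 ± 79.2 CPM) and Astro3 (504 ± 111) carried this excess, whereas Astro2 had 206 ± 65.2 CPM, at the level of adult-born neurons. Per cell, ensheathing cells held 0.158 UMIs of Eno1, near the 0.123 of red blood cells, so the 6.70-fold ratio rests on a level near background. Oligodendrocyte precursors had 283 ± 45.3 CPM, which differed from axis A interneurons (280 ± 24.4) by less than the spread. Replicate 1, from males, had the higher Eno1 of astrocytes in control and naris occluded libraries, and replicate 2, from females, in trained libraries.

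Eno2 was at 305, 268, 294, 233, 293 and 257 CPM in axis A interneurons and at 47.98, 42.3, 42.8, 30.6, 59.9 and 39.9 CPM in immature neurons. No value of the immature cells came near those of axis A. Astrocytes had 56.5 ± 14.6 CPM, ensheathing cells 39.8 ± 7.06 and red blood cells 21.2 ± 14.4. Per cell, n04 held 0.0739 UMIs, astrocytes 0.0907 and red blood cells 0.0913, the last from 20 UMIs in all. The Eno2 of immature neurons and astrocytes is therefore not told apart from that of red blood cells, and the part of free RNA in it was not tested. Adult-born neurons exceeded astrocytes 3.64-fold, a ratio that depends on the low level in astrocytes. The highest clusters were n09-GC-3, granule cells of axis B, at 509 ± 112 CPM, n12-GC-6 at 478 ± 64.1 and n11-GC-5 at 412 ± 38.1. Sensory neurons, which lie in the olfactory epithelium, had 93.2 ± 32.0 CPM at a median depth of 808.5 UMIs. Per cell this was 0.0983 UMIs, near the 0.0913 of red blood cells.

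Of Eno1 and Eno2 UMIs, Eno2 made up 68.9% ± 3.88 in mitral and tufted cells, 64.8% ± 1.45 in axis B, 49.5% ± 2.26 in axis A, 25.7% ± 1.85 in n04 and 9.31% ± 2.05 in astrocytes. The difference between adult-born neurons and astrocytes was 40.9 percentage points (SD 1.15), in the same direction in 6 of 6 libraries. Within axis A the share ran from 36.0% in n08-PGC-3 to 66.4% ± 19.0 in n14-GC-7, where a library held as few as 1 UMI of the pair, and in axis B from 62.4% in n07-GC-2 to 80.5% in n09-GC-3. Ensheathing cells had 32.6% ± 2.56, more than astrocytes in each library, with low levels of both forms. Their Eno2, at 0.0766 UMIs per cell, was below the 0.0913 of red blood cells, so this share is not read as a difference in Eno2 expression. Red blood cells held 20 UMIs of Eno2 and 27 of Eno1 in all libraries together. Oligodendrocyte precursors were close to astrocytes, at 9.45% ± 4.31.

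**Figure D3:**
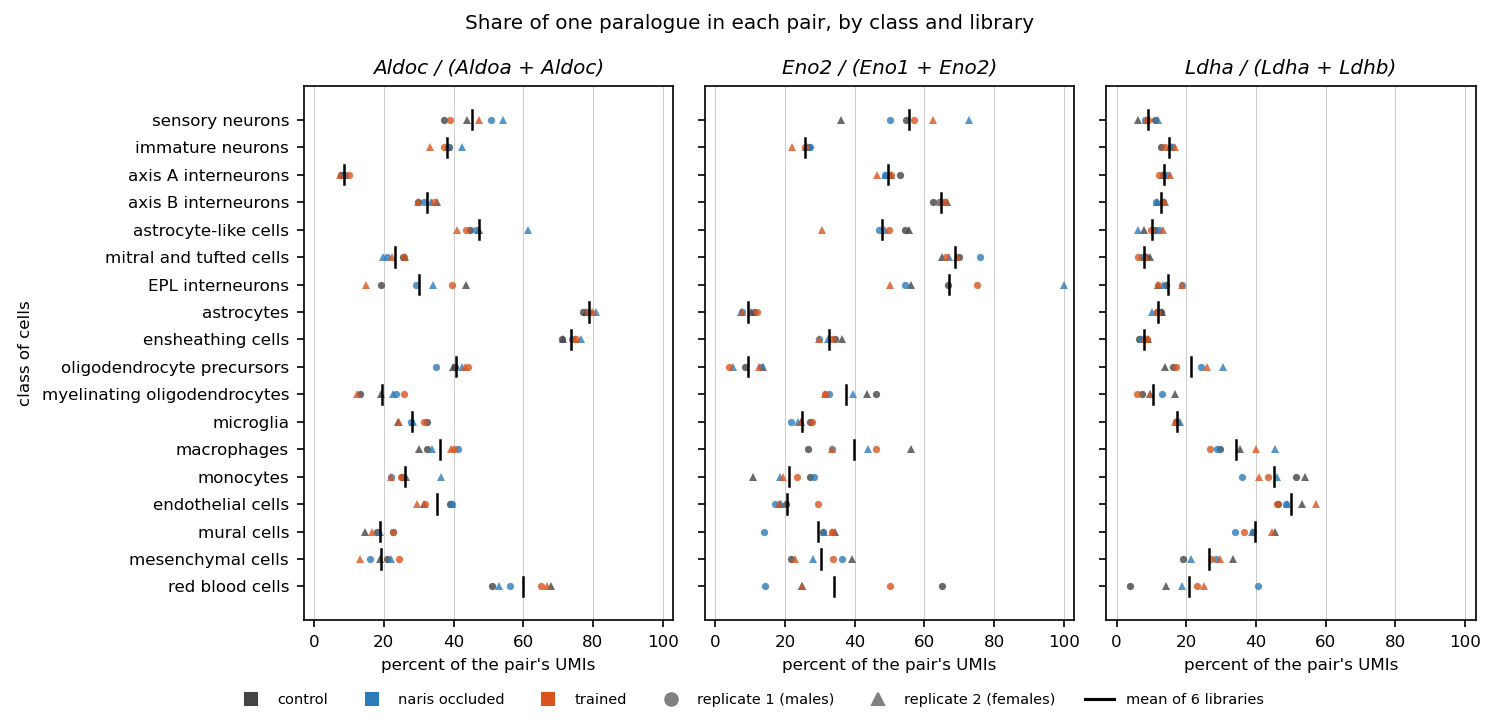
Share of Aldoc, Eno2 and Ldha in the UMIs of their pair (percent, horizontal axis) by class of cells (vertical axis). Each symbol is a library, with color for the condition and shape for the replicate, and the bar is the mean of 6 libraries. Astrocytes stand at 78.9% for Aldoc and 9.31% for Eno2, and endothelial cells at 50.05% for Ldha.

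Lactate dehydrogenase converts pyruvate to lactate and back, with the A form classically tied to lactate production and the B form to lactate use. Neurons and astrocytes differed much less in this pair than in the other pairs. Ldha made up 13.7% ± 0.892 of the pair in adult-born neurons and 11.8% ± 0.952 in astrocytes, a difference of 1.90 percentage points (SD 1.51) that had the same direction in 6 of 6 libraries, with a mean of 0.393 points in the control libraries alone. Endothelial cells, mural cells and some immune cells had higher shares instead. Endothelial cells had 46.2%, 53.2%, 48.5%, 49.0%, 46.0% and 57.3% Ldha, all above the highest share of any library in astrocytes (12.9%) and adult-born neurons (15.1%). Monocytes had 45.3% ± 6.70, mural cells 39.7% ± 4.53 and macrophages 34.3% ± 7.28, whereas microglia had 17.3% ± 0.556 and ensheathing cells 7.78% ± 0.986. Mesenchymal cells held 311 UMIs of Ldha and 884 of Ldhb, and oligodendrocyte precursors 117 and 432, so higher shares were not limited to vessel wall and immune cells. Per cell, Ldhb was at 0.385 UMIs in endothelial cells, 0.424 in monocytes and 0.355 in macrophages, below the 0.470 of red blood cells. The part of free RNA in these shares was not tested. The endothelial clusters had 59.1% ± 3.95 in EC1 and 23.8% ± 2.21 in EC2, which is the shallower cluster with the raised Aldoc described above, and the part of depth or of admixed RNA in its share was not tested.

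By level, Ldha was highest in EC1 at 258 ± 22.6 CPM and lowest in red blood cells at 26.8 ± 17.2. All 39 neighbouring pairs lay within an SD, but so did 37 pairs for Aldoc, so for no member does this count tell a gradual order from a divided one. Ldha was at 151 ± 10.1 CPM in axis A, 142 ± 11.9 in astrocytes and 57.2 ± 7.69 in ensheathing cells. Per cell, ensheathing cells held 0.110 UMIs of Ldha, against 0.114 in red blood cells. Ldhb varied widely between clusters of neurons. It had 2141 ± 247 CPM in n08-PGC-3, a periglomerular cluster, 1663 ± 132 in n12-GC-6 and 1507 ± 210 in n10-GC-4, against 721 ± 76.1 in n05-PGC-2 and 353 ± 21.1 in n04. Astrocytes had 1057 ± 62.1 CPM, ensheathing cells 679 ± 30.9, microglia 657 ± 28.0 and EC1 179 ± 24.7. The Ldha share was lowest in n08-PGC-3, at 1.97% ± 1.05.

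Summed over the 10 genes, astrocytes had 5977 ± 95.005 CPM, axis A interneurons 4630 ± 161, ensheathing cells 3253 ± 167, axis B interneurons 2324 ± 119, endothelial cells 1739 ± 137, n04 1392 ± 126 and red blood cells 611 ± 150. Among clusters Astro3 (6290 ± 578), Astro1 (6085 ± 107) and n12-GC-6 (6002 ± 251) had like sums, although Aldoc carried the astrocyte sums and Aldoa and Ldhb that of n12-GC-6. Without mitochondrially encoded genes in the totals these sums were 8174 ± 797, 6897 ± 147 and 6415 ± 251 CPM, so their likeness depended on the scaling. Over the 40 clusters, Pearson's r of the log2(CPM + 1) means of Aldoa and Aldoc was -0.10, of Aldoa and Gapdh 0.88, of Eno1 and Eno2 0.42, and of Ldha and Ldhb 0.02. The clusters come from the same 6 libraries and are not independent, so these values are descriptions.

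The genes most like each member over the 40 clusters, among 9216 genes with at least 50 CPM in a cluster, were found by the same r. Eno2 was most like Snap25 (r = 0.98), Napb and Dnm1, genes of synaptic vesicle fusion and recycling. Aldoc was most like Sfxn5 (0.95), Mmd2 and Ndrg2, the last a known astrocyte gene. Aldoa was most like Tpi1 (0.92), the next enzyme of the pathway, with Ndufa11 and Mdh2, and Gapdh was most like Pgam1 (0.92), a later enzyme, with Mdh2 and Mdh1. Hk1 followed Pdha1 (0.87), Atp5b and Cox5a, and Pfkm followed Ppargc1a (0.86), Fndc5 and Cyc1. Eno1 was most like its copy Eno1b (0.90), followed by Suclg1 and Uqcrfs1, Ldhb like Phyh (0.80), Ckb and Ndufc2, Pgk1 like Gtf2h1 (0.69), Sars and Chchd3, and Ldha like Akt1 (0.67), Foxp1 and Minos1.

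Of 23 further genes of glucose and lactate handling, 6 are described by class here, chosen after their values were seen, and nothing is read from them about the list. Slc2a1, the glucose transporter of the blood-brain barrier, was at 991 ± 363 CPM in endothelial cells and 231 ± 112 in mural cells, against 41.9 ± 9.41 in astrocytes. Slc2a3, the neuronal transporter, was at 104 ± 23.6 CPM in axis B, 99.6 ± 16.1 in mitral and tufted cells and 10.3 ± 2.77 in astrocytes. Slc16a1, a lactate transporter, was at 361 ± 90.1 CPM in endothelial cells, 129 ± 10.7 in ensheathing cells and 65.5 in astrocytes. Hk2, the inducible hexokinase, was at 248 ± 41.4 CPM in microglia and 3.94 ± 1.36 in astrocytes. Platelet-type phosphofructokinase, Pfkp, was at 337 ± 59.5 CPM in axis B and 17.1 ± 5.17 in ensheathing cells. Bpgm, which makes the oxygen-release regulator of erythrocytes, was at 533 ± 74.8 CPM in red blood cells and, next to them, 311 ± 13.4 in myelinating oligodendrocytes.

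To compare the genes along the axes, of which axis B includes the still developing cluster n06-Transition, log2 ratios of CPM + 1 between an axis and n04 were formed within each library. In axis A, 9 of the 10 members were higher than in n04 in all 6 libraries, where 42.2% of 4001 genes with at least 50 CPM in either were. On the same limit of 50 CPM, 8 of 9 members were. The median ratio of the members was 1.25 on the log2 scale, and that of the 4001 genes was 0.09. Aldoa had ratios of 2.80, 3.01, 2.83, 2.94, 2.46 and 3.21 and Eno2 of 2.64, 2.63, 2.76, 2.89, 2.27 and 2.66. Both were higher in each library, and the first trained library had the smallest ratio of both. The other 7 members that were higher had mean ratios between 0.96 ± 0.23 (Hk1) and 1.44 ± 0.15 (Ldhb), with Gapdh at 1.34 ± 0.05. Aldoc was the exception, at 0.16 ± 0.23 and higher in 5 of 6 libraries. Per cell, n04 held less Aldoa, Aldoc, Eno2, Ldha (0.107 against 0.114 UMIs) and Pgk1 (0.0107 against 0.0137) than red blood cells. The ratios of these genes may depend on the free RNA in n04, which was not tested.

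In axis B, 6 of 10 members were higher than in n04 in all 6 libraries, against a background of 42.4% of 4309 genes of at least 50 CPM. Hk1, Pfkm and Pgk1 lay below that limit, and 4 of the 7 members above it were higher in all libraries. The count for Hk1 and Pfkm also depended on the weighting, with 4 and 5 of 6 libraries higher when each cluster was weighted the same. Eno2 had ratios of 2.44, 2.55, 2.76, 2.73, 2.03 and 2.65, nearly those of axis A, and Aldoa had 1.37 ± 0.20 against 2.88 ± 0.25 in axis A. Aldoc was at 1.01 ± 0.24, although both groups held less per cell (0.288 and 0.262 UMIs) than red blood cells (0.685). Axis B is also shallower than n04, at medians of 827.5 and 1668 UMIs, so nothing is read from the Aldoc ratio. Pfkm was at 0.67 ± 0.29, Ldhb at 0.50 ± 0.06 and Hk1 at 0.24 ± 0.13. Per cell, axis B held 0.0432 UMIs of Pfkm, 0.473 of Ldhb and 0.0437 of Hk1, fewer than n04 (0.0468, 0.603 and 0.0668). Red blood cells held 0.0320, 0.470 and 0.0457, and 0.511 of Aldoa against 0.602 in axis B. Gapdh (0.312), Eno1 (0.132) and Ldha (0.0696) of axis B were also near or below red blood cells (0.320, 0.123 and 0.114). The count of 6 therefore includes levels near background, and the part of free RNA in these ratios was not tested. Gapdh (-0.03 ± 0.05), Eno1 (0.14 ± 0.33) and Ldha (0.22 ± 0.25) were not separated from n04 by more than the spread over libraries, and Pgk1 was at -0.51 ± 0.49. Mitochondrially encoded genes took 16.2% ± 1.06 of UMIs in axis B against 8.91% ± 1.08 in n04 and 8.62% ± 1.15 in axis A. Without these genes in the totals, the median ratio of all genes in axis B moved from 0.0005 to 0.21, Gapdh became 0.09 ± 0.05, higher in 5 of 6 libraries, and Ldha was higher in 6 of 6. Gapdh was also higher in 6 of 6 libraries in cells with at least 1000 UMIs (0.21 ± 0.12) and with each cluster weighted the same (0.29 ± 0.10), so its direction in axis B depended on the setting.

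**Figure D4:**
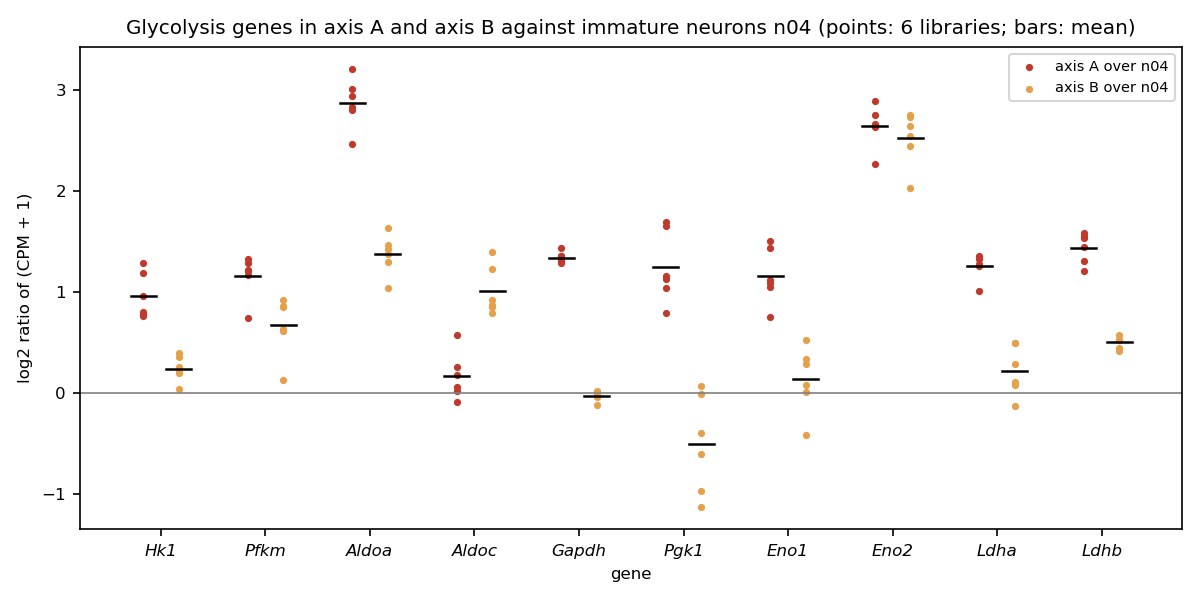
Log2 ratio of CPM + 1 over immature neurons n04 (vertical axis) for each gene (horizontal axis) in axis A and axis B interneurons. Points are the 6 libraries and bars their means. Eno2 is high in both axes, and Aldoa, Gapdh, Eno1 and Ldha are higher in axis A than in axis B. The Aldoc ratio is larger in axis B, where its level per cell is below that of red blood cells.

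Of the 23 further genes, 15 were higher in axis A than in n04 in all 6 libraries and none was lower, with a median of 0.82. In axis B 11 were higher in all 6 and 3 were lower in all 6, namely Bpgm (-0.60 ± 0.35), Mpc1 (-0.47 ± 0.26) and Pdhb (-0.28 ± 0.18). Of these genes, 13 in axis A and 12 in axis B had at least 50 CPM in either group, and of those 13 and 7 were higher and 0 and 2 lower in all libraries, where 33.4% of all such genes were lower in axis A and 41.8% in axis B. Tpi1, triosephosphate isomerase, had 2.62 ± 0.27 in axis A and 1.27 ± 0.29 in axis B, and Gpi1, glucose-6-phosphate isomerase, had 1.92 ± 0.20 in axis A. Pfkp had 2.42 ± 0.22 in axis A and 3.57 in axis B, and Slc2a3 had 1.92 ± 0.47 and 2.80 ± 0.48.

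The study altered olfactory activity to ask how it changes the cells of the bulb. To test whether it altered these genes within cell types, counts were summed per library and cluster and compared with edgeR's quasi-likelihood test in 38 clusters with at least 10 cells in each library. The members gave 293 tests per comparison after the filter on low counts, with Aldoa, Aldoc and Ldhb tested in 38 clusters, Gapdh in 37, Eno1 in 35, Eno2 and Ldha in 32, Hk1 in 23, Pfkm in 17 and Pgk1 in 3. No member was called at an adjusted p under 0.05 in naris occluded against control, in trained against control or in trained against naris occluded. Of all 178070 tests, edgeR called 0.0680%, 0.0932% and 0.175%, so the expected number among 293 tests is below 1 in each. At an unadjusted p under 0.05 edgeR gave 13, 12 and 16 member tests, or 4.44%, 4.10% and 5.46%, against 4.78%, 5.73% and 7.21% of all tests. DESeq2 called 0 member tests in the 3 comparisons, against 0.0168%, 0.0140% and 0.0298% of all tests, and gave 1, 4 and 1 at an unadjusted p under 0.05, against 0.678%, 0.967% and 1.50% of all. These p-values measure the spread between pooled libraries, with 2 per condition, and a p that misses the threshold does not show that levels were alike.

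The median member had a standard error of 0.24, 0.24 and 0.25 on the log2 scale, and differences of several such errors in a single cluster did not reach an adjusted p of 0.05, as the tests described below show. Median log2 fold changes of the members were -0.08 in naris occluded against control, 0.04 in trained against control and 0.11 in trained against naris occluded, with 34.5%, 58.4% and 71.0% of tests above 0, where 50.1%, 50.2% and 50.2% of all tests were. These comparisons share libraries, and the tests of different clusters share the same 6 libraries. Single libraries moved these medians. Without the first trained library that of trained against naris occluded was 0.03 with 55.2% above 0, and without the first naris occluded or the second trained library it was 0.20 and 0.19. The median of trained against control turned to -0.07 without the first trained library and to -0.01 without the second control library, and was 0.07 and 0.08 without the first control and the second trained library. That of naris occluded against control was -0.02 without the second naris occluded library, -0.03 without the first control library, and -0.14 and -0.13 without the first naris occluded and the second control library.

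The tests with the smallest adjusted p are described although none passed. They were picked for their small p, so the separation of their libraries is no further support. How many of all genes had libraries separated in the same way was not counted. In naris occluded against control these were, in edgeR's adjusted p, Aldoc (0.366) and Eno1 (0.502) in n17-M/TC-3, Ldha in oligodendrocyte precursors (0.559) and in n02-PGC-1 (0.787), Aldoa in MicroG3 (0.769) and Ldhb, Aldoc and Aldoa in red blood cells (0.612, 0.612 and 0.713). Ldha of oligodendrocyte precursors, scaled with TMM factors over the genes tested, was at 69.4 and 68.2 CPM in control, 147 and 165 CPM in naris occluded and 99.5 and 129 CPM in trained libraries. The values of control and naris occluded libraries did not overlap, and the log2 fold change was 1.18 ± 0.33 (SE). Aldoc in n17-M/TC-3 was at 481 and 442 CPM in control and 329 and 306 CPM in naris occluded libraries, a log2 fold change of -0.54 ± 0.24. The Aldoc of mitral and tufted cells was not told apart from that of red blood cells above. In this cluster and comparison, edgeR gave an unadjusted p under 0.05 for 513 of 4389 genes.

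In trained against control the smallest edgeR adjusted p belonged to Ldha in Astro1 (0.389), which had 171 and 172 CPM in control, 130 and 139 in naris occluded and 120 and 133 in trained libraries. Both control values lay above the other 4, and the log2 fold change was -0.45 ± 0.14. Next came Eno1 (0.557) and Pfkm (0.638) in EC1, Aldoc (0.576), Hk1 (0.666) and Pfkm (0.705) in OEC3, Aldoc in Astro2 (0.688) and Ldhb in the interneurons of the external plexiform layer (0.735). Aldoc in OEC3 had 1376 and 1344 CPM in control against 1726 and 1745 in trained libraries, a log2 fold change of 0.35 ± 0.13.

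In trained against naris occluded the smallest belonged to Gapdh in EC2 (0.333), to Eno1 (0.363), Aldoa (0.429), Hk1 (0.473) and Gapdh (0.513) in OEC3, to Eno1 in n04 (0.392), Aldoc in red blood cells (0.403) and Aldoa in sensory neurons (0.481). Eno1 in n04 had 132 and 124 CPM in control, 113 and 88.3 in naris occluded and 176 and 142 in trained libraries. Every trained value lay above every other, and the log2 fold change over naris occluded libraries was 0.66 ± 0.16. This test passed under 2 alternatives, with an edgeR adjusted p of 0.0259 when no filter on low counts was applied and 0.0111 without the second trained library, when Ldhb in macrophages also passed (log2 fold change 1.198 ± 0.341, adjusted p = 0.0299). The trained group is then a single library, of males, which is assumed to vary like the other groups. Over all genes, the fit without a filter called 0.0528%, 0.0853% and 0.132% of tests in the 3 comparisons, and the fit without the second trained library called 0.164%, 0.323% and 0.603%.

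With the clusters summed into 18 classes, a choice made after seeing the data, edgeR again called no member in any comparison, where it called 0.0911%, 0.0724% and 0.298% of all tests. In astrocytes the 95% intervals of 9 members (without Pgk1) lay between -1.01 and 0.50 for naris occluded against control and between -0.53 and 0.59 for trained against control. In axis A interneurons they lay between -0.54 and 0.33 and between -0.31 and 0.47. In ensheathing cells they lay between -0.76 and 0.27 and between -0.37 and 0.54.

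**Figure D5:**
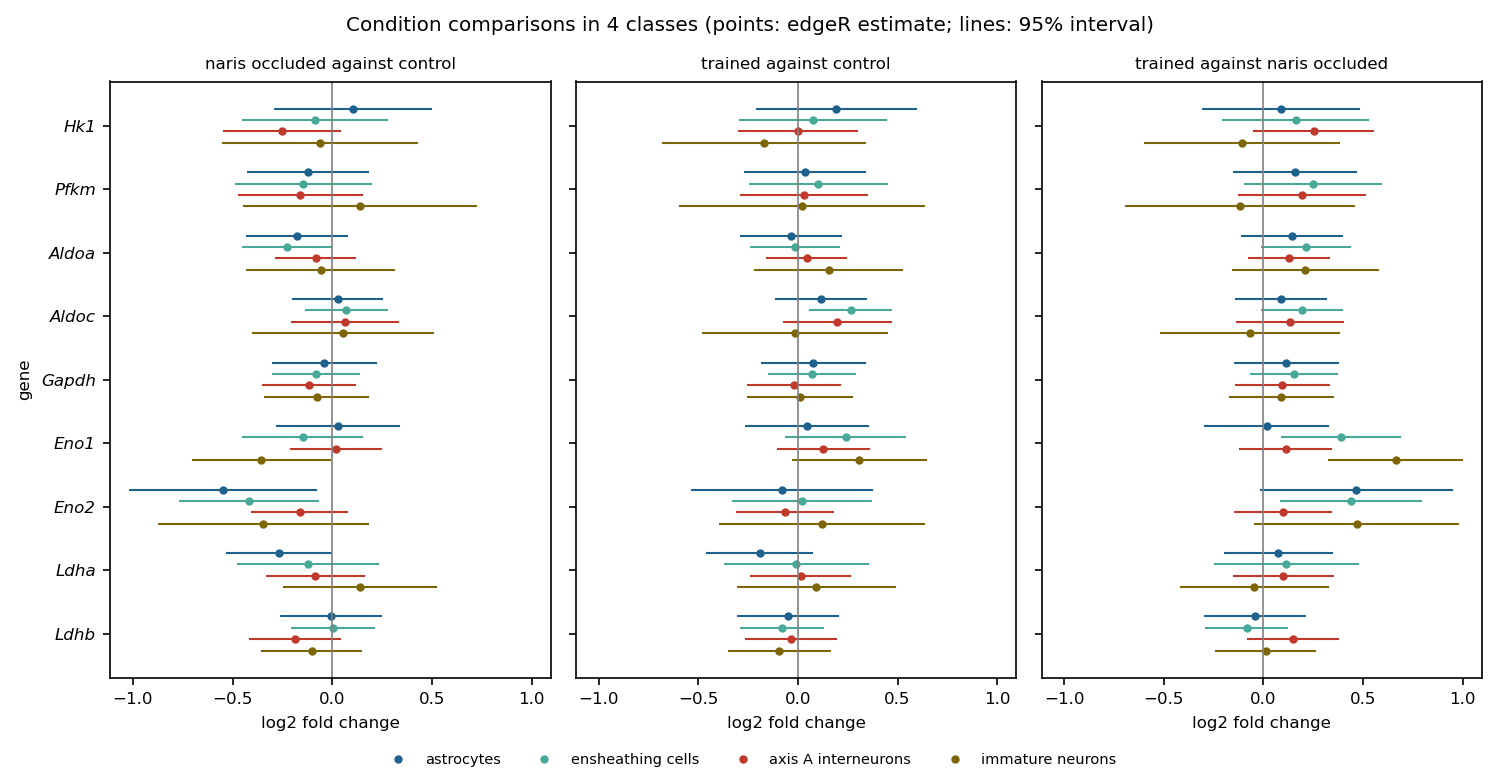
Log2 fold changes (horizontal axis) of 9 genes (vertical axis) between conditions in 4 classes of cells. Points are edgeR estimates and lines 95% intervals. Estimates lie between -0.55 and 0.66, the widest interval is that of Pfkm in immature neurons, and no comparison passed an adjusted p of 0.05.

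Whether the response differed between glia and neurons was tested directly, with a term for class by condition and the library as a block. Adult-born neurons pool 12 clusters whose numbers of cells differed between conditions, such as n03-GC-1 with 362 and 587 cells in naris occluded and 286 and 139 in trained libraries, so a response of the class holds both its make-up and changes within cells. By edgeR, 0 of 10 members differed between astrocytes and adult-born neurons in the response to occlusion or to training, and 0 of 10 between ensheathing cells and adult-born neurons, at adjusted or unadjusted p under 0.05. DESeq2 gave the same counts of 0. At an unadjusted p under 0.05, edgeR gave 5.33% and 5.79% of all genes for occlusion and training in astrocytes and 5.72% and 6.42% in ensheathing cells, and DESeq2 gave 0.587%, 0.775%, 0.564% and 0.616%. DESeq2 called 0.00743% of genes for occlusion in ensheathing cells and 0 in the other 3 tests. Over all genes edgeR called 0.0235% and 0.0157% of 12777 genes for astrocytes and 0.0520% and 0.0817% of 13468 genes for ensheathing cells. The smallest adjusted p of a member, 0.871 by edgeR, was that of Eno1 (0.19 ± 0.14) and Gapdh (0.17 ± 0.12) in ensheathing cells after training. For Aldoc the difference in log2 response between astrocytes and adult-born neurons was 0.09 ± 0.17 for occlusion and 0.03 ± 0.17 for training.

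Of the 23 further genes, 1 was called, Slc2a1 in EC1, the endothelial cluster that was also highest for Ldha. Slc2a1 had 878 and 1014 CPM in control, 857 and 719 in naris occluded and 1868 and 1369 in trained libraries. Both trained values lay above the other 4. The log2 fold change was 0.78 ± 0.14 over control (edgeR adjusted p = 0.0193) and 1.04 ± 0.15 over naris occluded libraries (adjusted p = 0.00072), where EC1 had 25 higher calls among 8665 genes (0.289%) and 30 (0.346%). The call over control was lost without the first control library (0.68, edgeR adjusted p = 0.413), the second control library (0.89, adjusted p = 0.0586) or the first trained library (0.54, adjusted p = 0.0746) and in cells with at least 1000 UMIs (0.75, adjusted p = 0.0614), with the log2 fold change above 0 in each. That over naris occluded libraries was lost without the second naris occluded library (0.92, adjusted p = 0.0639). In the fit by class, Pfkfb3, an activator of phosphofructokinase, was also called in axis B interneurons of trained against naris occluded libraries (edgeR adjusted p = 0.0434), with 6.53 and 4.90 CPM in control, 0 and 1.75 CPM in naris occluded and 13.8 and 11.8 CPM in trained libraries, levels of few UMIs. The make-up of the class differed between these libraries, with 159 and 254 cells of n06-Transition in naris occluded and 555 and 384 in trained libraries, and the part of this in the value was not tested. Trained mice were also deprived of water, and the part of this in the value cannot be told apart from that of training. Ldha in EC1 was not called, with log2 fold changes of 0.12 ± 0.15 over control and 0.24 ± 0.15 over naris occluded libraries.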

How the data were processed

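Single cells of dissociated olfactory bulbs were profiled with 10x Chromium 3′ chemistry. The authors deposited a table of UMI counts per gene and cell and a table of cells with their cluster and library, with the mitochondrial fraction of each cell. The submitters' processing notes name Cell Ranger 2.0.0, Seurat 2.2.1 and mm10. The authors removed cells with few genes and doublets. Their normalised table, made for clustering, was not used here. The library column of the cell table was used, because the name starts of the trained cells were reversed against it. Neurons without a neuronal cluster (755) were left out.

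Counts were summed per library and cluster and divided by the total (CPM). Conditions were compared in 38 clusters with at least 10 cells in each library by edgeR 4.0.16 (TMM, filterByExpr, quasi-likelihood test, Benjamini-Hochberg adjustment over all genes of a cluster), in R 4.3.3. DESeq2 1.42.0, no filter, no mitochondrial genes, cells with at least 1000 UMIs, a replicate block and leaving out each library were alternatives. DESeq2 gave an adjusted p of NA in 9 member tests. The scripts were tested on simulated data. The named tests are the 8 with the smallest adjusted p per comparison, and the 3 most similar genes per member are named. The members and gene lists were chosen with earlier results of these data known. A marker gene is not reported here.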

Additional observations from a re-analysis of the deposited data

How the results depend on the processing

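The differences between astrocytes and adult-born neurons in paralogue shares kept their direction under the alternatives run. With each cluster weighted the same, the Aldoc difference was 53.8 and the Eno2 difference 38.5 percentage points. In cells with at least 1000 UMIs the Aldoc difference was 68.3, and in control libraries alone the Ldha difference was 0.393. The cause of these shifts was not tested. Leaving out 1 library at a time gave 63.2 to 64.3 for Aldoc, 40.7 to 41.3 for Eno2 and 1.51 to 2.23 for Ldha. The count of members higher than in n04 in all libraries was between 9 and 10 in axis A and between 5 and 7 in axis B. No member was called in naris occluded against control or trained against control under the 14 alternatives of each. In trained against naris occluded, 1 was called with no filter on low counts, and leaving out 1 library gave 0 to 2. The tests of a different response in glia and neurons stayed at 0. Few counts passed the filter for Pgk1, tested in 3 clusters, and Pfkm, tested in 17.

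The replicate number follows the sex of the pool, and the labels name nothing else that it marks. Same-numbered libraries deviated together with correlations of 0.119 to 0.272. With 2 libraries per condition, the 2 pairs of a comparison mirror each other, so they give the same value and are not independent. With the replicate block, 0 members were called in each comparison, while the calls over all genes went from 121, 166 and 311 to 190, 253 and 521. The fits by class and the alternatives for Slc2a1 were chosen after seeing the data.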
